A study of Mus musculus with 7 samples.

Results

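Named noncoding RNAs and their host genes were followed in cortical microglia of 2 origins. The members were taken by symbol from the gene table: microRNA (miRNA) genes, miRNA host genes, small nucleolar RNAs (snoRNAs), snoRNA host genes, and the single genes Malat1, Neat1, Meg3, Gas5 and Rpph1. They came to 259 of 14594 genes: 189 miRNA genes, 4 miRNA host genes, 22 H/ACA snoRNAs, 26 C/D snoRNAs, 14 snoRNA host genes (the Snhg genes and Gas5), 3 long noncoding RNAs (Malat1, Neat1 and Meg3) and the RNase P RNA Rpph1. Rmrp, the RNA of RNase MRP, was not analysed here. The rule reads symbols alone.

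All animals were C57BL/6 mice 12 weeks old with the genotype Cx3Cr1GFP/+, Hoxb8IRES-Cre/+ and ROSA26CAG-LSL-tdTomato/+, so every library carried the same alleles and the groups are defined by the colour of the sorted cells. The Cx3Cr1 allele puts green fluorescence in microglia and related myeloid cells and leaves 1 working copy of the gene. The Hoxb8 allele expresses Cre where Hoxb8 is on, and the recombined reporter stays red in all descendants. Hoxb8 microglia were the cells with green and red (n = 3 libraries, library numbers 6, 14 and 22) and non-Hoxb8 microglia those with green alone (n = 4 libraries, numbers 5, 13, 21 and 25). No treatment was given. The comparison asks in which RNAs the 2 lineages differ. The labels name 4 animals for 7 libraries, so p-values measure the spread between these libraries and not between 7 animals.

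MiRNAs are cut from hairpins inside longer primary transcripts, and the mature strand guides an Argonaute protein to messenger RNAs through its seed, bases 2 to 8. Box C/D snoRNAs guide 2′-O-methylation and box H/ACA snoRNAs guide pseudouridylation of ribosomal and spliceosomal RNA. In mammals most of both kinds are released from introns of host genes, and the spliced Snhg transcripts are what remains. Malat1 is a nuclear-speckle RNA and Neat1 the scaffold of paraspeckles. Rpph1 is the catalytic RNA that trims the 5′ end of transfer RNA precursors.

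The hairpin and snoRNA rows need care because of how they were counted. Libraries were made from total RNA with a low-input kit and read as 50 bp single-end reads without strand. The 169 miRNA genes with a mature sequence in RefSeq (of 189) gave mature RNAs of 16 to 26 bases, shorter than the reads. Trimming and the overlap needed for a count are not given in the sources used here, so a count on such a row is not read as a level of the mature miRNA. Of the 237 miRNA and snoRNA genes, 80 lay wholly inside exons of another gene of the table in the GENCODE M21 annotation, and 78 of these 80 held counts. A total of 106 shared at least 1 exon base with such a gene, and these held 12485 of the 27618 counts of the 3 short classes. In these rows reads of the short RNA and of the surrounding gene cannot be told apart, and antisense pairs cannot be told apart either. The labels name GENCODE M5 for the reads, so the overlaps when the reads were counted may differ from those given here. A further 90 miRNA genes, 7 H/ACA and 11 C/D snoRNAs overlapped a gene of the table without a shared exon base. Reads of the short RNA and of that gene's unspliced RNA cannot be told apart there. Snord82, Snora23, Mir1931 and Mirlet7c-1 are such rows.

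Sequences are printed for the miRNAs whose hosts or hairpins the results turn on, from RefSeq on GRCm38.p6, with the seed in capitals. Mir155hg, on chr16:84703167-84715245 of the plus strand, carries miR-155 in its exons:
miR-155-5p: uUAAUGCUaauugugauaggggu
Mir22hg, on chr11:75461539-75466676 (plus), carries miR-22:
miR-22-3p: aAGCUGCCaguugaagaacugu
Mir17hg, on chr14:115042879-115046727 (plus), carries the miR-17-92 cluster, in which miR-17 and miR-20a share 1 seed and miR-19a and miR-19b share another:
miR-17-5p: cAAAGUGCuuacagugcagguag
miR-20a-5p: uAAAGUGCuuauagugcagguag
miR-18a-5p: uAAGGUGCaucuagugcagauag
miR-19a-3p: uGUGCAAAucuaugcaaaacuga
miR-19b-3p: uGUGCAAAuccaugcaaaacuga
miR-92a-3p: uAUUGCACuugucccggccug
Mir99ahg, on chr16:77236317-77773427 (plus), carries a second set in its introns:
miR-99a-5p: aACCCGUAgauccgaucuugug
let-7c-5p: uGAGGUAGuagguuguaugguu
miR-125b-5p: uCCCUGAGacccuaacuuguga
Members with the smallest p higher in Hoxb8 libraries, and the miRNA genes with the highest levels, included these:
miR-6385: gCAAGGAUgacagagaggaag
miR-1931: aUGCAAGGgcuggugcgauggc
miR-6236: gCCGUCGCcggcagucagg
miR-3064-5p: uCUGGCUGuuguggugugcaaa

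For the snoRNAs, GENCODE transcript sequences on GRCm38 are printed for the pair of C/D snoRNAs with the smallest p lower in Hoxb8 libraries and for Snord47, which lies in Gas5. Capitals mark an exact TGATGA (the core of the C box) where 1 was found, and a CTGA (the D box); both were searched on the transcribed strand only, and a CTGA can share its last 3 letters with a TGATGA. Snord82 (chr1:86356261-86356330, minus) lies in an intron of Ncl, and Snord22 (chr19:8725866-8725991, plus) lies inside the annotated exons of Snhg1:
Snord82: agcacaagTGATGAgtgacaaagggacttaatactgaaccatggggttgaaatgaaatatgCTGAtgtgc
Snord22: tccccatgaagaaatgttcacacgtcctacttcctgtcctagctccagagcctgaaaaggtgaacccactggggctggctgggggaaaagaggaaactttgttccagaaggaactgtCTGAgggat
Snord47: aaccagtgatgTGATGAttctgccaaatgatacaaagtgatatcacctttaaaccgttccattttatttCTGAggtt
TGATGA was present in 16 of the 26 C/D members (61.5%), in 0 of the 22 H/ACA members and in 26.1% of all 1507 annotated mouse snoRNA transcripts. CTGA was present in 26 of 26 C/D members, in 13 of 22 H/ACA members and in 79.5% of all annotated ones. The Snord22 transcript holds no exact TGATGA, which says only that these letters are not in it.

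Library depth was 5915261 to 7741934 counts, and 13058 to 13750 genes had at least 1 count. The members were mostly faint: the median member summed to 44 counts over all 7 libraries, against 749.5 for the median gene. Between 184 and 218 members were detected per library, 253 had a count somewhere and 6, all miRNA genes, were at 0 throughout. Counts were present in all 7 libraries for 122 of the 259. The 10 microglia markers (P2ry12, Tmem119, Sall1 and others) were all tested and summed to between 31710 and 42800 CPM (counts scaled to library size with edgeR's TMM factors) in every library, without a call. Markers of neutrophils and lymphocytes did not reach the level needed for a test.

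The members' share of all counts was 1.82% ± 0.42 (SD, n = 4) in non-Hoxb8 and 1.98% ± 0.20 (SD, n = 3) in Hoxb8 libraries. Malat1 made up nearly all of it, and without it the shares were 0.124% ± 0.032 and 0.128% ± 0.029. Both differences are smaller than the SD within a group.

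Of the 259 members, 96 passed the filter on low counts and were tested: 58 miRNA genes, 4 miRNA host genes, 8 H/ACA and 13 C/D snoRNAs, 11 snoRNA host genes, Malat1 and Neat1. None was called at an adjusted p of 0.05 by edgeR's quasi-likelihood test, by DESeq2 or by limma-voom. Over all 11874 genes tested, edgeR called 4 higher (0.0337%) and 0 lower (0%) in Hoxb8 libraries. DESeq2 called 20 higher (0.14%) and 3 lower (0.021%) of 14316 genes, and limma-voom 0 in either direction (0% and 0%). Of the 96 members, 47 had a fold change above and 49 below 1, with a median log2 fold change of -0.03 against -0.00034 over all genes.

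At an unadjusted p below 0.05, 1 member was higher (Mir5107) and 2 were lower (Snord82 and Snord22), which is 1.04% and 2.08% of those tested. The same rule took 1.95% and 1.57% of all genes. In 4 members (Mir5107, Mir1931, Mir3113 and Snord104) every Hoxb8 library was above every non-Hoxb8 library, or 4.17% against 2.48% of all genes. In 1 member (Snord82) every Hoxb8 library was below, or 1.04% against 2.08%. Where libraries with adjacent numbers (5 with 6, 13 with 14, 21 with 22) were taken as a pair in the fit, 43 genes were called higher (0.362%) and 0 lower (0%), and Mir5107 was the single member among the 43. That block rests on 2 residual degrees of freedom, and library 25, which has no neighbour, adds nothing to its difference.

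**Figure D1:**
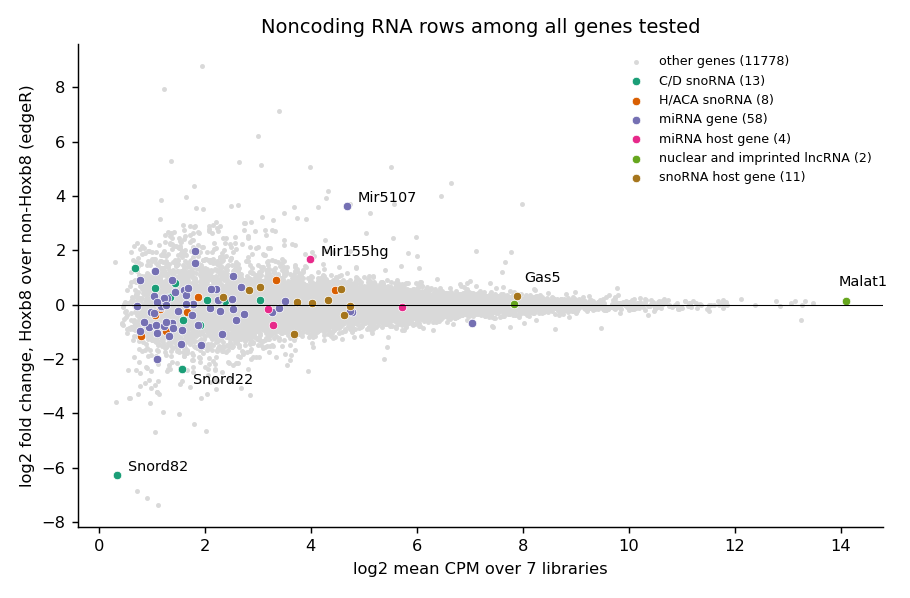
Log2 fold change of Hoxb8 over non-Hoxb8 libraries (edgeR) against the log2 mean CPM over 7 libraries, with 1 point per gene tested; grey points are the other genes and coloured points the 96 noncoding RNAs by class. Most members lie among other genes of their level, Mir5107 (3.65) stands highest among the members and Snord82 lowest, and Malat1 has the highest level of all genes.

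By class, among miRNA genes 24 were above and 34 below 0, with a median of -0.13. C/D snoRNAs had 9 above and 4 below, with a median of 0.18, and H/ACA snoRNAs 3 above and 5 below, with a median of -0.21. Snhg genes and Gas5 had 8 above and 3 below, with a median of 0.18. With the block these class medians were -0.05, -0.03, 0.11 and -0.01, so those of both snoRNA classes and the snoRNA hosts changed sign. The 4 miRNA hosts had a median of -0.12, and -0.44 with the block, and Malat1 and Neat1 had 0.09 and 0.22.

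Malat1 (chr19:5795690-5802672, minus) had the highest level of all members and of all genes of the table. It stood at 12534, 19843, 19359 and 15830 CPM in non-Hoxb8 libraries and at 21171, 18488 and 16142 CPM in Hoxb8 libraries. The groups overlap, and both the lowest value (library 5) and the highest (library 6) belong to 1 pair of adjacent numbers. The log2 fold change was 0.14 ± 0.16 (SE), not past the test (edgeR adjusted p = 0.99963). Per kilobase of exon its level was 2419 ± 489 CPM (SD, n = 4) and 2664 ± 360 CPM (SD, n = 3).

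Neat1 (chr19:5824708-5845478, minus) stood at 129, 239, 137 and 397 CPM in non-Hoxb8 and at 147, 413 and 131 CPM in Hoxb8 libraries. The level was high in libraries 25, 14 and 13, which belong to both groups, and low in the other 4. The summed level of the 9 astrocyte markers was also highest in these: library 25 had 1203 CPM, library 13 had 716, library 14 had 708, and the other 4 had 298 to 549 CPM. Among these markers Slc1a2 had 4513, 3050 and 2790 counts in libraries 25, 13 and 14 and at most 1928 elsewhere. Slc1a3 was instead highest in library 5. The oligodendrocyte gene Mbp and the neuron gene Snap25 were also highest in libraries 25, 13 and 14. Mag and Cnp, also oligodendrocyte genes, were not. Gfap, a defining astrocyte gene, had few counts but was also highest in libraries 25, 13 and 14, at 20, 5 and 9 counts. It had at most 3 counts elsewhere and 0 in libraries 5 and 6. Aqp4, another astrocyte marker, was highest in library 25 at 259 counts. It had more counts in library 5 (181) than in libraries 13 and 14 (122 and 158). The part of astrocytes or other brain cells in the Neat1 level was not tested. The log2 fold change of Neat1, 0.03 ± 0.61 (SE), is far inside its error. Meg3, an imprinted RNA abundant in neurons, had 3, 3, 2 and 0 counts against 5, 10 and 1, too few for a test.

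Of 15 paraspeckle and nuclear-speckle protein genes, all were tested, 7 were above and 8 below 0 and none was called, with a median log2 fold change of -0.01. The members with the smallest p were Srsf2, a splicing factor of speckles, at 0.25 ± 0.18 (SE), and Tardbp, which encodes the RNA-binding protein TDP-43, at 0.30 ± 0.22 (SE).

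Gas5 (chr1:161034422-161038539, plus) is the host of several C/D snoRNAs, and its spliced transcript is degraded by nonsense-mediated decay. It stood at 186, 238, 231 and 208 CPM in non-Hoxb8 libraries and at 237, 261 and 302 CPM in Hoxb8 libraries. The groups overlap only between library 13 (238) and library 6 (237), and Hoxb8 was the higher member in all 3 pairs. The log2 fold change of 0.31 ± 0.17 (SE) did not pass the test (edgeR adjusted p = 0.99963, with the block 0.99977). Snord47, inside Gas5, had 37, 19, 31 and 23 counts against 35, 11 and 58, so its groups overlap widely.

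Snhg8 (chr3:123507552-123508404, minus) stood at 9.48, 14.1, 7.38 and 33.3 CPM in non-Hoxb8 and at 8.55, 7.29 and 6.74 CPM in Hoxb8 libraries. Library 25 holds the highest value and the others overlap. The log2 fold change was -1.09 ± 0.54 (SE), -0.41 with the block, where library 25 carries no weight, and -0.46 when that library was left out. Snhg12 (chr4:132308623-132311024, plus) stood at 18.7, 26.6, 13.1 and 18.7 CPM against 21.1, 33.2 and 32.5 CPM, with overlap and a log2 fold change of 0.58 ± 0.35 (SE). Neither was past the test (edgeR adjusted p = 0.99963 for both).

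Snhg1, Snhg5 and Snhg20, which with Gas5 and Snhg12 had the highest levels of the host class, had log2 fold changes of -0.38 ± 0.39, -0.03 ± 0.32 and 0.18 ± 0.49 (SE). Per kilobase of exon in non-Hoxb8 libraries, Gas5 was the highest of the 12 snoRNA hosts with an exon length, at 57.4 ± 6.2 CPM (SD, n = 4). Snhg8 (18.8 ± 13.9; 12.1 ± 4.1 without library 25), Snhg5 (15.3 ± 2.0) and Snhg6 (10.9 ± 5.6) followed, and Snhg8 ranked under Snhg5 without library 25. Snhg1 (9.04 ± 3.65), Snhg12 (8.03 ± 2.31), Snhg20 (6.58 ± 3.64) and Snhg3 (6.31 ± 2.99) came next, each within the SD of its neighbour, and the other 4 lay between 0.128 and 3.86 CPM. Neat1, at 10.8 ± 6.0 CPM per kilobase, was among them, and Malat1 was far above. The exon lengths join all annotated transcripts of a gene. They cover the whole locus of Snhg1, Snhg8 and Snhg12 but only a small part of that of Snhg3. The ranking of the hosts therefore divides by unlike lengths.

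Of 15 nonsense-mediated decay factors, 8 were above and 7 below 0 and none was called (median 0.01). Smg8, a regulator of the SMG1 kinase, had the smallest p, with 43.5 ± 9.4 CPM (SD, n = 4) against 25.9 ± 4.0 CPM (SD, n = 3) and a log2 fold change of -0.75 ± 0.30 (SE). Smg6, the endonuclease of this pathway, was next at -0.34 ± 0.22 (SE).

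**Figure D2:**
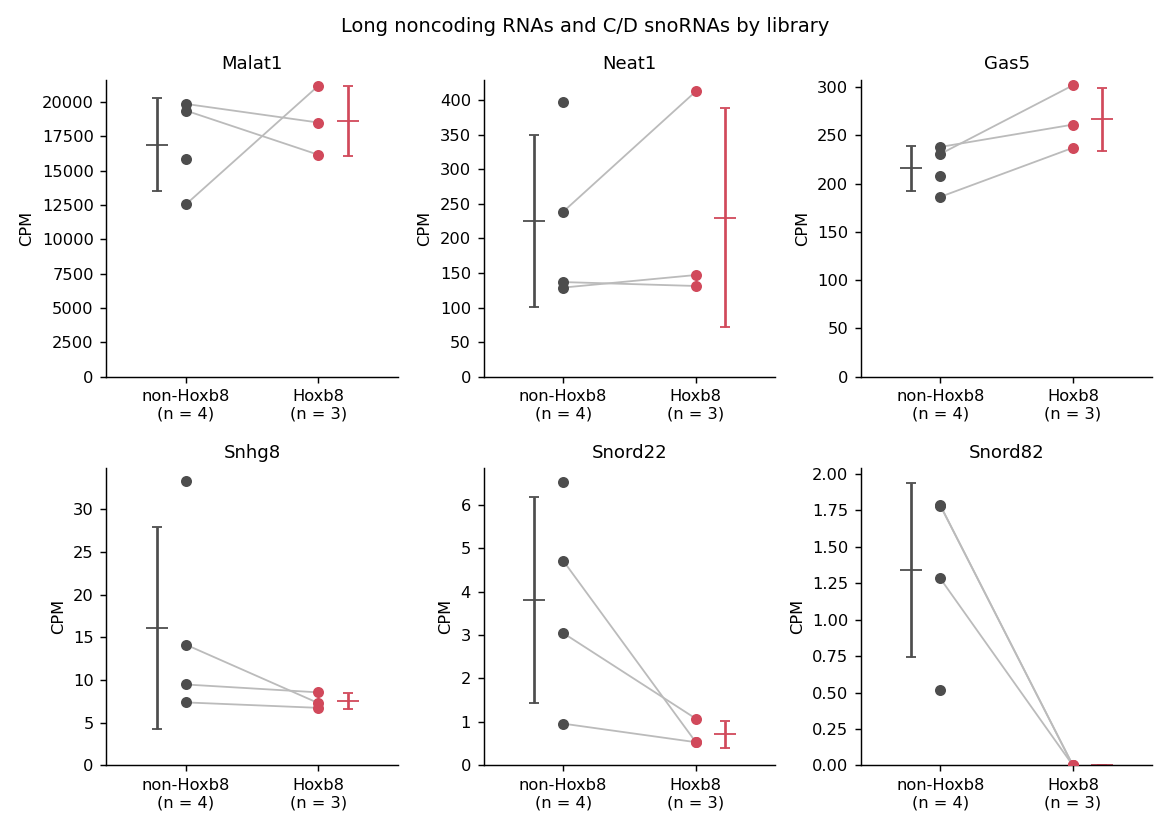
TMM-scaled CPM of 3 long noncoding RNAs, Snhg8 and 2 C/D snoRNAs in each library, on linear axes from 0; points are libraries, dashes with bars the mean and SD of each group, and grey lines join libraries with adjacent numbers. Malat1, Neat1 and Gas5 overlap between groups, the highest Snhg8 value of 33.3 CPM is 1 non-Hoxb8 library, and Snord82 is at 0 in all 3 Hoxb8 libraries.

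Snord82, which lies in an intron of Ncl, the gene of the nucleolar protein nucleolin, had 13, 14, 8 and 3 counts in non-Hoxb8 libraries and 0 counts in each of the 3 Hoxb8 libraries. The groups do not overlap, but the whole signal is 38 counts. With a floor of 3 counts put in place of 0 over the Hoxb8 group, the level was at least 10.4-fold lower. That value is a bound and not a measured size, and it takes in no error of the non-Hoxb8 counts. Snord82 did not pass the test (edgeR adjusted p = 0.99963, DESeq2 0.543, block 0.642). Ncl itself stood at 239 ± 56 CPM (SD, n = 4) and 253 ± 53 CPM (SD, n = 3), a difference smaller than its spread.

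Snord22 had 7, 37, 19 and 38 counts in non-Hoxb8 and 4, 4 and 8 counts in Hoxb8 libraries. Library 5 (0.961 CPM) lies under the highest Hoxb8 library (1.08 CPM), and the other 3 non-Hoxb8 libraries lie above it. The log2 fold change of -2.38 ± 1.03 (SE) did not pass the test (edgeR adjusted p = 0.99963). Per 100 counts of its host Snhg1 it had 4.24, 16.1, 20.4 and 16.1 counts against 3.01, 3.33 and 3.85, so this ratio, looked at after the values were seen, does not overlap and was not tested.

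The other C/D snoRNAs with high levels were Snord17, Snord100, Snord47, Snord65 and Snord72, with mean levels over all libraries of 7.71, 4.69, 4.34, 3.26 and 3.62 CPM. Their log2 fold changes ran from -0.76 ± 0.86 (SE, Snord65) to 0.19 ± 0.80 (SE, Snord72), and in each the groups overlap. Among H/ACA snoRNAs, Snora23, in an intron of Ipo7, was the highest at 23.3, 12.7, 20.4 and 16.0 CPM against 24.3, 35.6 and 18.7 CPM, with overlap and a log2 fold change of 0.53 ± 0.37 (SE). Snora33, inside the annotated exons of the ribosomal protein gene Rps12, stood at 7.83, 11.2, 7.38 and 1.55 CPM against 10.2, 14.2 and 15.5 CPM, with a log2 fold change of 0.92 ± 0.58 (SE). Library 25 is lowest there, and the groups overlap. Snora31, Snora28 and Snora75 had log2 fold changes of 0.30, -0.26 and -0.98, with SEs of 0.97 to 1.09.

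Of 18 tested genes for snoRNP core and assembly proteins, 6 were above and 12 below 0, with a median of -0.14 and no call. Znhit3, a box C/D assembly factor, had the smallest p, with 3.97 ± 1.57 CPM (SD, n = 4) against 14.2 ± 8.2 CPM (SD, n = 3) and a log2 fold change of 1.83 ± 0.60 (SE). Its counts were 36, 32, 32 and 10 against 122, 38 and 157. Library 14 lies just above the non-Hoxb8 libraries in raw counts only. It was deeper (7635360 counts) than library 21 (5915261 counts), and scaled for depth it does not stand above that library. Nufip1, which bridges snoRNP proteins to the assembly machinery, was at 0.76 ± 0.42 (SE).

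Rpph1 (chr14:50807449-50807767, minus) had 14, 6, 2 and 10 counts against 10, 2 and 1, too few for a test. Of 10 tested protein subunits of RNase P and RNase MRP, 5 were above and 5 below 0, with a median of 0.10 and no call. Rpp38 was at 0.65 ± 0.44 (SE) and Pop5 at -0.81 ± 0.60 (SE).

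Mir155hg is the host of miR-155, an miRNA that macrophages make on inflammatory stimulation. It had 38, 188, 14 and 0 counts in non-Hoxb8 libraries and 15, 545 and 1 counts in Hoxb8 libraries. Libraries 13 and 14, which belong to different groups and carry adjacent numbers, held the high values (23.9 and 73.6 CPM), and the other 5 lay between 0 and 5.22 CPM. The log2 fold change was 1.67 ± 2.11 (SE) without the block and -0.53 with it, and it was -2.86 without library 14 and 3.31 without library 13. The cytokine genes Il1b and Tnf were high in the same 2 libraries, named here after their values were seen: Il1b had 408 CPM in library 13 and 943 CPM in library 14, and Tnf 547 and 700 CPM. Elsewhere Il1b reached at most 26.6 CPM and Tnf 50.2 CPM. With the block Il1b was called higher in Hoxb8 libraries, by 1.08 ± 0.19 (SE, log2, edgeR adjusted p = 0.0020). Tnf, at 0.30 ± 0.19 (SE), was not called with the block. Neither was part of the test of Mir155hg, and their part in its level was not tested.

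Mir22hg, the host of miR-22, had 117, 126, 12 and 13 counts against 15, 106 and 59. High values occur in both groups (libraries 5, 13 and 14), and the log2 fold change was -0.17 ± 0.81 (SE). The hairpin row Mir22 held 38, 13, 0 and 1 counts against 0, 22 and 0, with nearly all counts in these same 3 libraries. It lies wholly inside exons of Mir22hg and also of Tlcd2 on the same strand. Mir22hg itself shares 206 exon bases with Tlcd2, which summed to 380 counts against 448 for Mir22hg.

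Mir17hg had 35, 94, 111 and 62 counts against 63, 49 and 37, with overlap and a log2 fold change of -0.76 ± 0.55 (SE). Its hairpin rows Mir19b-1 and Mir92-1, both inside its exons, held 0 counts in all 7 libraries. How reads on shared exon bases were counted is not given, so these zeros are not read as absence of the miRNAs. Mir99ahg, the most abundant of the 4 hosts, stood at 31.7, 54.8, 83.5 and 44.0 CPM against 43.2, 51.6 and 57.4 CPM, with the Hoxb8 values inside the non-Hoxb8 range and a log2 fold change of -0.08 ± 0.31 (SE). None of the 4 hosts was past the test (edgeR adjusted p = 0.99963 for each).

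**Figure D3:**
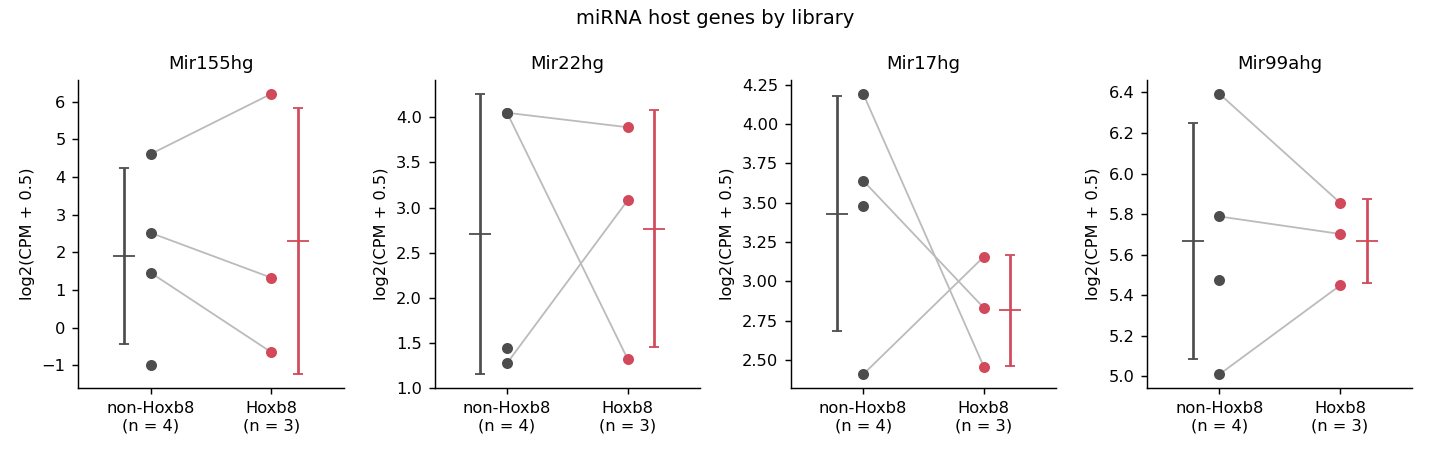
Log2 of CPM plus 0.5 for the 4 miRNA host genes in each library; points are libraries, dashes with bars the mean and SD of each group, and grey lines join libraries with adjacent numbers. Mir155hg is high in libraries 13 and 14, which are joined by a line, and all 4 hosts overlap between groups.

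Of 20 tested genes for miRNA processing and effector proteins, 10 were above and 10 below 0, with a median of 0.02 and no call. Dicer1, the enzyme that cuts precursor hairpins, stood at 164 ± 52 CPM (SD, n = 4) against 125 ± 25 CPM (SD, n = 3), a log2 fold change of -0.40 ± 0.24 (SE). Ago2, the slicing Argonaute, was at -0.31 ± 0.21 (SE).

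Mir5107 (chr18:60812076-60812163, plus) lies within Cd74, the invariant chain of MHC class II. Of its 88 bases, 12 (13.64%) are shared with a Cd74 exon on the same strand and the others are intronic. It had 1, 42, 21 and 47 counts in non-Hoxb8 libraries and 88, 991 and 97 counts in Hoxb8 libraries, which is 0.137, 5.35, 3.37 and 8.07 CPM against 11.8, 134 and 13.1 CPM. Every Hoxb8 library lies above every non-Hoxb8 library, and library 14 stands far above all others. The log2 fold change was 3.65 ± 1.35 (SE) and did not pass the test (edgeR adjusted p = 0.99963), while DESeq2 gave no adjusted p. In the fit with the block it was higher in Hoxb8 libraries by 3.87 ± 0.55 (SE) and passed (edgeR adjusted p = 1.06e-04). Without library 14 the log2 fold change without the block was 1.56. The call with the block was not kept without libraries 13 and 14 (adjusted p = 0.092, log2 fold change 3.47), and was kept without libraries 5 and 6 or without libraries 21 and 22.

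Cd74 stood at 13.6, 61.6, 33.8 and 56.8 CPM in non-Hoxb8 and at 164, 1275 and 166 CPM in Hoxb8 libraries, also without overlap and also highest in library 14. Its log2 fold change was 3.69 ± 1.04 (SE; edgeR adjusted p = 0.99963) and with the block 3.44 (adjusted p = 2.96e-07). Per 100 Cd74 counts, Mir5107 had 1.01, 8.68, 9.95 and 14.2 counts in non-Hoxb8 and 7.16, 10.5 and 7.88 counts in Hoxb8 libraries. The Hoxb8 ratios lie inside the non-Hoxb8 range, and the means of 8.46 ± 5.50 (SD, n = 4) and 8.51 ± 1.75 (SD, n = 3) differed by 0.0512 (exact two-sided permutation test chosen after the values were seen, p = 0.971, smallest possible 0.0571). That p does not show that the ratios are alike, and reads of the Cd74 precursor and of the hairpin cannot be told apart on this row.

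The MHC class II genes H2-Ab1 and H2-Aa, named after their values were seen, rose in the fit with the block by 3.95 ± 0.31 and 5.84 ± 0.33 (SE, log2; adjusted p = 2.69e-09 and 2.51e-12) and were not past the test without it. Of 9 border-associated macrophage markers, all were tested, 8 were above 0, and the block called 5 higher, where edgeR without it called 0 and DESeq2 called 1 (Cbr2). Their summed level was 382 to 605 CPM in non-Hoxb8 and 525 to 1183 CPM in Hoxb8 libraries. Without Stab1, which stood at 380 and 370 CPM on average, the sums were 65.2, 133, 34.0 and 201 CPM against 418, 822 and 196 CPM, with overlap only between libraries 25 and 22. Of 9 monocyte markers, 8 were in the table, 7 of 7 tested were above 0, edgeR called 1 (Itga4), DESeq2 4 and the block 4, and the sum was 124 to 202 CPM against 301 to 673 CPM. Spn and Treml4 were at 0 in every non-Hoxb8 library, and Ly6c2 was at 0 in all libraries but library 5 (26 counts). The part of such cells in the Mir5107 value was not tested, and in bulk samples fewer cells of a type and less RNA per cell cannot be told apart.

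**Figure D4:**
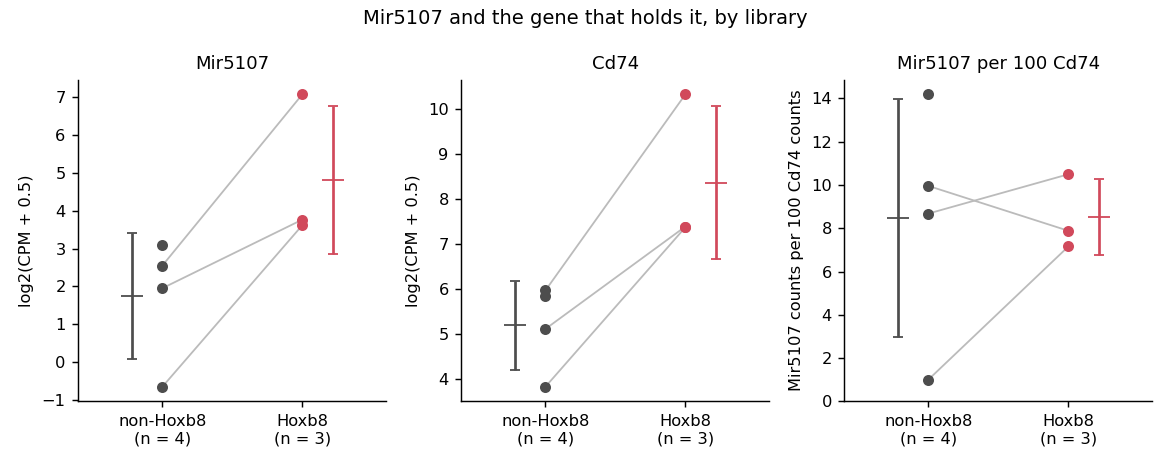
Left and middle, log2 of CPM plus 0.5 for Mir5107 and Cd74; right, Mir5107 counts per 100 Cd74 counts, with the axis from 0. Points are libraries, dashes with bars the mean and SD of each group, and grey lines join adjacent numbers: both levels are higher in every Hoxb8 library, and the Hoxb8 ratios of 7.16 to 10.5 lie inside the non-Hoxb8 range of 1.01 to 14.2.

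Mir1931, in an intron of Cdk17, had 14, 20, 7 and 6 counts against 28, 37 and 44, without overlap and with a log2 fold change of 1.54 ± 0.83 (SE). Per 100 Cdk17 counts it had 1.65 to 4.01 counts in non-Hoxb8 and 6.22 to 10.9 counts in Hoxb8 libraries. Cdk17 itself stood at 58.7 ± 11.1 CPM (SD, n = 4) and 56.8 ± 3.0 CPM (SD, n = 3). The ratio was not tested and repeats the separation of the Mir1931 counts. Mir6385, on the strand opposite Pml and wholly inside its exons, had 11, 16, 10 and 1 counts against 55, 51 and 13, and a log2 fold change of 1.98 ± 0.94 (SE). Library 22 (1.75 CPM) lies inside the non-Hoxb8 range there, whose highest value is 2.04 CPM. Without strand these reads may belong to Pml, whose own counts overlap between groups (161 to 237 against 114 to 294). Neither miRNA gene passed the test (edgeR adjusted p = 0.99963 for both).

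Mir6236, the miRNA gene with the highest mean level, had 145, 3942, 504 and 150 counts against 488, 1058 and 638. Library 13 alone held 502 CPM and the others 19.9 to 143 CPM, and the log2 fold change of -0.68 ± 1.30 (SE) became 1.22 without that library. Mir3064, inside Ddx5 exons, stood at 25.96, 22.3, 27.1 and 41.6 CPM against 23.5, 21.9 and 27.8 CPM, with overlap and with 2.28 to 4.37 counts per 100 Ddx5 counts over all libraries. Mir8114, which shares 83.78% of its bases with a Glul exon, and Mir1896, inside Zscan26 exons on the opposite strand, had log2 fold changes of -0.24 ± 0.47 and 0.13 ± 0.48 (SE).

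Among members below 0 with small p, Mir1901 lay wholly inside exons of Gm6277 on the same strand and of Cables1 on the opposite strand. It had 34, 15, 21 and 49 counts against 17, 12 and 7, a log2 fold change of -1.50 ± 0.89 (SE). Mir7211, opposite an intron of Tmcc3, had 3, 33, 8 and 22 counts against 0, 8 and 5, a log2 fold change of -2.02 ± 1.28 (SE), which was -2.78 without library 14 and -1.45 without library 6. Mir378b, opposite an intron of Msi2, had 88, 30, 23 and 22 counts against 31, 13 and 17, a log2 fold change of -1.09 ± 0.77 (SE), which was -0.46 without library 5. In each of the 3 the groups overlap and none passed the test (edgeR adjusted p = 0.99963 for each).

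Seeds shared between members gave a further view of the hairpin rows. Mir181b-2 and the untested Mir181a-2 on chromosome 2 share a seed, and Mir181b-2 had 6, 7, 63 and 11 counts against 32, 1 and 80. Libraries 21 and 22, which are adjacent numbers in different groups, were its highest, and its log2 fold change was 0.57 ± 1.12 (SE). Mir29b-2, whose mature RNA shares its seed with miR-29c, was at -0.28, and its untested neighbour Mir29c summed to 66 counts.

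**Figure D5:**
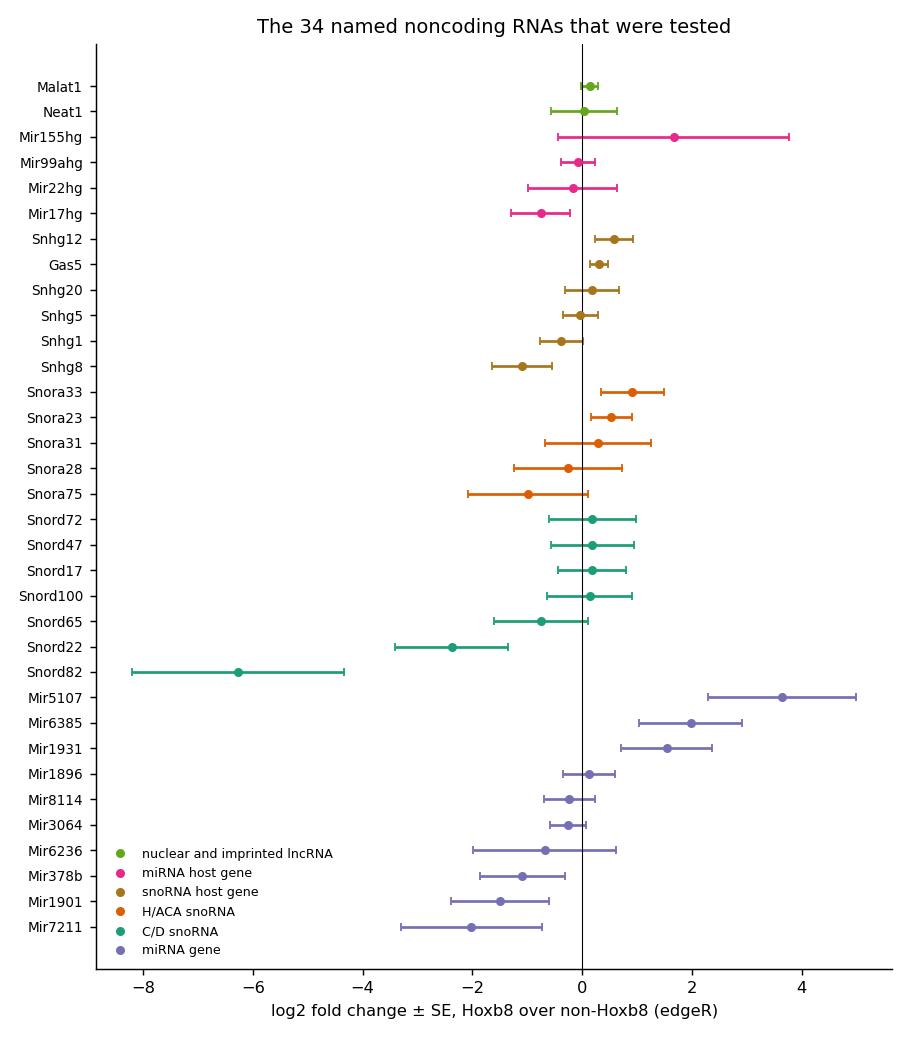
Log2 fold change of Hoxb8 over non-Hoxb8 libraries with its SE (edgeR) for the 34 named members that were tested, coloured by class. None passed the test; the differences of Malat1 and Gas5 have SEs of 0.16 and 0.17, and those of Mir155hg and Snord82 SEs of 2.11 and 1.93.

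Of the 163 members below the filter, 5 had every Hoxb8 library above every non-Hoxb8 library (3.07%, against 2.57% of all 2720 genes below the filter) and 3 had every one below (1.84%, against 2.28%). The 5 were Mirlet7c-1, Snord49a, Mir421, Mir7002 and Mir6925, and the 3 were Mir7227, Mir3473c and Mir378a, named after their values were seen. Mirlet7c-1, in an intron of Mir99ahg, had 0, 1, 1 and 3 counts against 17, 4 and 14, while Mir99ahg did not differ beyond its spread. Fitted without the filter, its log2 fold change of 2.90 did not pass the test (edgeR adjusted p = 0.97236). Mir125b-2, in the same host, had 15 counts in library 21 and 0 in the other 6.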

How the data were processed

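RNA of sorted cortical microglia was sequenced in 7 libraries, 4 non-Hoxb8 and 3 Hoxb8, from 4 animals per the labels. The deposited table holds raw counts per gene symbol. Per the labels' protocols, cells were captured with anti-Cd11b beads after trypsin digestion of cortex without meninges and sorted on tdTomato and GFP, and reads were mapped with STAR 2.4.1c on GRCm38 with GENCODE M5. Further tools in the submitters' processing notes are Subread with featureCounts, and DESeq2. Their settings and the filter that left 14616 rows are not given in the sources used here. The labels name no molecular identifiers, so a floor covers only counting error of PCR reads.

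Of the rows, 22 carry date numbers for names. They hold 0.12% to 0.151% of counts and entered neither library sizes nor tests. The test was edgeR's (version 4.0.16, R 4.3.3; TMM, filterByExpr, robust glmQLFit and glmQLFTest, no block), with Benjamini-Hochberg adjustment over 11874 genes at 0.05. The SE is the log2 fold change over the square root of F, and CPM use TMM factors. Alternatives were DESeq2 1.42.0, limma-voom 3.58.1, RLE scaling, no filter, each library left out, and a block of adjacent library numbers. The 3 pairs' deviations from their groups' means had correlations of 0.18, 0.28 and 0.19 over 11874 genes, each above the 0.1 set for accepting pairs. The labels do not state this pairing, which rests on library numbers, so the main test was run without it.

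Positions and exon lengths are from GENCODE M21 (GRCm38), in which 254 of 259 members matched once by symbol. Members and lists were chosen with earlier results of these data known. Named were members past either fit, the 6 of smallest p in each direction, the single genes, all miRNA hosts, the 5 highest by mean CPM in the other classes, and the genes that share their positions. Lists give the 2 members of smallest p and any called. The fits were tested on simulated data.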

Additional observations from a re-analysis of the deposited data

Results flagged for a closer look

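Among the named members, 36 values were checked in the 4 non-Hoxb8 libraries for a single library standing apart. Mir378b in non-Hoxb8 replicate 1 (library 5) did: it stood at 12.1 CPM and the other 3 libraries at 3.69 to 3.82 CPM, and on the log2(CPM + 0.5) scale the gap was 0.972 of the whole range, above Dixon's 95% critical value for 4 samples. Chance alone flags about 1 in 20 such groups, or 1.8 of 36. The Hoxb8 libraries stood at 4.14, 1.75 and 2.29 CPM. Without that library the log2 fold change of Mir378b was -0.46, against -1.09 with it.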

How the results depend on the processing

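Members called higher in Hoxb8 libraries numbered 0 in the main fit and 1 (Mir5107) with the block of adjacent library numbers, also without libraries 21 and 22 (1) and without 5 and 6 (1), alternatives added after seeing the data. RLE scaling, no filter, DESeq2, limma-voom and leaving out any single library gave 0 member calls in either direction. Over all genes, 4 were called higher: DESeq2 gave 20, limma-voom 0, the block 43, and leaving out each library 0 to 6; DESeq2 called 3 lower, against 0. The block changed no other member call. Of the 34 named tested members, 17 kept their direction under every setting run, Mir5107 became stronger and 16 reversed in at least 1, none of them past the test; the cause was not tested. Under limma-voom log2 fold changes turned to -0.0056 (Neat1), 0.012 (Mir99ahg), 0.38 (Mir6236), -0.0078 (Snora31) and -0.027 (Snord47). With the block they turned to -0.53 (Mir155hg), -0.0069 (Mir1896), -0.062 (Snora31), 0.17 (Snora28), 0.099 (Snora75), -0.035 (Snord47) and -0.13 (Snhg20). With each library left out they ran from -2.86 to 3.31 (Mir155hg), -0.065 to 0.38 (Mir1896), -0.87 to 0.29 (Mir22hg), -1.05 to 1.22 (Mir6236), -0.56 to 0.13 (Mir8114), -0.26 to 0.22 (Mir99ahg), -0.69 to 0.45 (Neat1), -0.22 to 0.62 (Snhg20), -0.19 to 0.13 (Snhg5), -1.31 to 0.14 (Snora28), -1.02 to 1.01 (Snora31), -0.19 to 0.57 (Snord100), -0.060 to 0.69 (Snord17), -0.41 to 0.60 (Snord47) and -0.15 to 0.56 (Snord72). Mir5107 ran at 1.56 without library 14. Up to 4 named members fell below the filter when a library was left out and gave no value. The median member held 44 counts over all libraries and the median gene 749.5; how depth bears on the number of calls was not tested.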

Other observations

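Snora33 and Snord100 lie inside the annotated exons of Rps12, and the row of Snora33 held more counts than that of the ribosomal protein gene itself. Snora33 summed to 496 counts, Snord100 to 229 and Rps12 to 428 over the 7 libraries. How reads on shared exon bases or with several map positions were counted is not given. These sums are therefore not read as the relative levels of the RNAs. Rps12 had 22, 101, 39 and 55 counts in non-Hoxb8 and 26, 88 and 97 counts in Hoxb8 libraries. Tpt1, the gene of another abundant protein and the host of Snora31, summed to 658 counts. Snx5, the host of Snord17, held 47241 counts against 370 for the snoRNA.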
